A study of Mus musculus with 28 samples.

Results

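The comparison concerns splenic dendritic cells of C57BL6/J wild-type mice under angiotensin II (Ang II), with or without 2-hydroxybenzylamine (2-HOBA). It rests on 8 of the 28 arrays of the series: 4 whose titles name Ang II with 2-HOBA (written THOBA there) and 4 whose titles name Ang II alone. Mice of both groups were 3 months old, and neither group carried an engineered allele, so the 2-HOBA was the only labelled difference. A gene entered the test if a probe set carried its symbol and no other, with the probe set of highest mean taken where there were several, and if its value was above 5 on 3 or more of the 28 arrays. This left 10452 of 19938 genes.

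The other arrays came from vehicle-treated wild-type cells (7), from wild-type cells given Ang II with hydralazine and hydrochlorothiazide (6), and from cells lacking the NADPH oxidase subunit gp91phox (NOX2, encoded by Cybb) with vehicle (3) or Ang II (4). The series was set up to ask how oxidative stress alters gene expression in dendritic cells. Its design text places the treatment after isolation of the cells, while its title speaks of hypertension. Not given in the sources used here are the dose, the duration, the sort and the number of mice behind each array. The labels call the replicates biological, and p-values measure the spread between these arrays.

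Ang II is the effector peptide of the renin-angiotensin system, and it activates NADPH oxidases that produce superoxide. Oxidation of membrane lipids then yields reactive dicarbonyls such as isolevuglandins, which attach to lysines of proteins. 2-HOBA is a small primary amine that reacts with these dicarbonyls faster than lysine does and so acts as their scavenger. Dendritic cells take up proteins, cut them with the proteasome and with endosomal proteases, and present the peptides to T cells together with costimulatory ligands.

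Levels are given as deposited log2 values, on which a difference of 1 is a factor of 2, and every difference is Ang II with 2-HOBA minus Ang II. The labels name no batch. A principal component was taken from 998 probe sets without a symbol, all of a single block of identifiers, and held 30.2% of their variance. The arrays were cut at gaps in its scores into 3 sets, called array sets 1 to 3 here. Vehicle replicate 2 was kept in set 1 by a rule of the method. The gap that parts it from the rest is wider than the cut between sets 1 and 2, which runs from -7.48 to -2.47. Ang II replicates 1 and 2 lay in set 1, with component scores of -14.16 and -13.83. The 4 arrays with 2-HOBA lay in set 2 together with Ang II replicates 3 and 4, at scores between -2.47 and 5.07, as did 4 of the 7 vehicle arrays. Values with the set as a block, and values within set 2 (4 arrays against 2), are therefore given where they differ from the rest. Vehicle replicate 2 stood apart from every other array of the series, with a score of -25.95 and a Cybb level of 6.34 against 8.51 to 9.57 on the other vehicle arrays. It enters the shared estimate of spread and the vehicle values. As an array of set 1 it also enters every value with the set as a block, unless said otherwise. For the labelled cell type, the 11 shared dendritic cell genes averaged between 7.50 and 8.13 on the 8 arrays. Among them Itgax, which encodes CD11c, lay between 7.59 and 8.44, and the cytokine receptor gene Flt3 between 7.70 and 8.46. The transcription factor gene Zbtb46 was lower, between 5.09 and 5.82. The 19 tested B cell genes averaged between 7.81 and 9.08 on the same arrays, so the marker levels do not show how pure the cells were. These are bulk samples, in which fewer cells of a type and less RNA per cell cannot be told apart.

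No gene passed the test. With limma fitted over all 28 arrays, 0 of 10452 genes reached an adjusted p below 0.05 (0% called), and the lowest adjusted p was 0.977. At an unadjusted p below 0.05 there were 379 genes (3.63%), of which 190 lay higher with 2-HOBA (1.82%) and 189 lower (1.81%). All 4 arrays with 2-HOBA lay above all 4 Ang II arrays for 188 genes (1.8%) and below them for 111 (1.06%), 299 in all (2.86%). Of these, 55 and 47 also had an unadjusted p below 0.05. The smallest p that an exact test of 4 arrays against 4 allows is 0.0286, which is also the share of genes expected apart by array order alone. The 2.86% found is no larger, and the 3.63% is below the share that a threshold of 0.05 passes by chance. The differences were small: their interquartile range ran from -0.10 to 0.20, and the median standard error was 0.22. Of all genes tested, 6125 lay higher and 4327 lower, with a median of 0.05. In 3 genes the difference was above 1 and in 16 below -1. The count at an unadjusted p below 0.05 depended on single arrays: it was 226 without Ang II replicate 1, 205 without replicate 2, 959 without replicate 3 and 777 without vehicle replicate 2. Within set 2, with the vehicle arrays of that set in the fit, limma called 5 genes, all lower with 2-HOBA. They were the erythroid genes Rhd, Car2, Epb42 and Hemgn and the protease gene Ctse. With only the 6 arrays of the compared groups in that set, a setting added after the data were seen, it called 0, with 362 at an unadjusted p below 0.05.

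**Figure D1:**
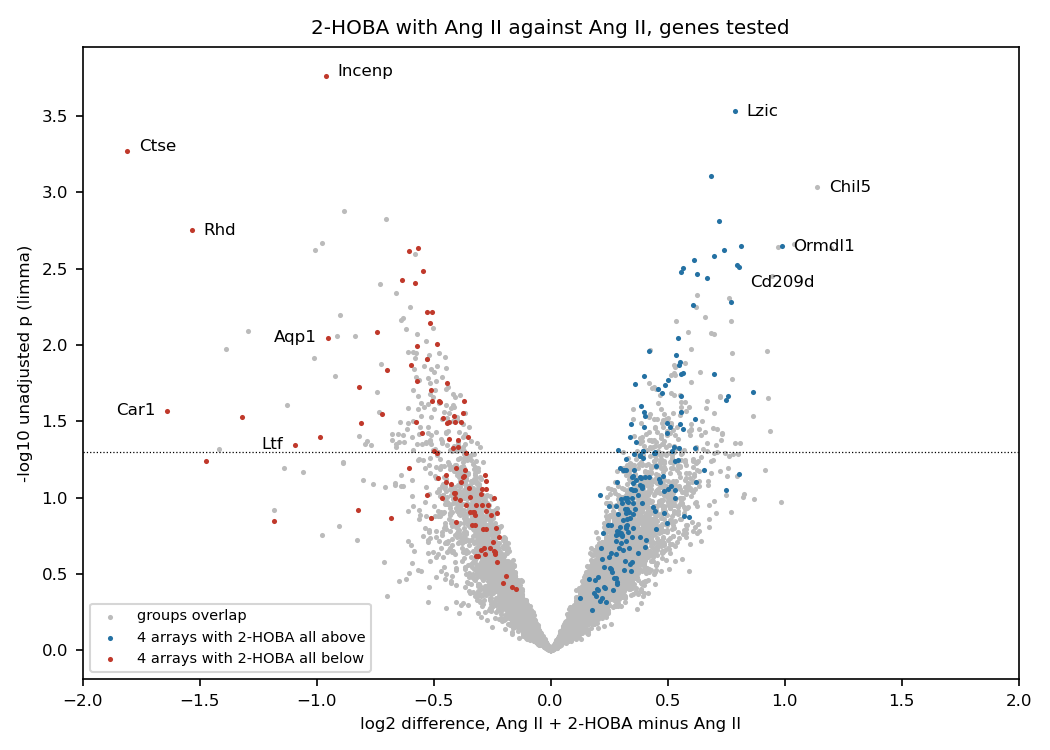
Each point is 1 of the 10452 genes tested, with the log2 difference between Ang II with 2-HOBA and Ang II on the x axis and the -log10 unadjusted limma p on the y axis. Blue and red mark genes whose 4 arrays with 2-HOBA all lay above (188) or all below (111) the Ang II arrays, and the dotted line is the unadjusted threshold of 0.05. The differences reach further on the lower side, where Ctse, Car1 and Rhd lie.

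Ctse had the most negative difference of all genes tested. It encodes cathepsin E, an aspartic protease that is found in endosomes of antigen-presenting cells and in red cell membranes. Its level was 7.02, 6.30, 7.27 and 6.53 with 2-HOBA and 7.91, 8.16, 9.67 and 8.62 with Ang II. The highest array with 2-HOBA lay below the lowest Ang II array, and Ang II replicate 3 was the highest of all. The difference was -1.81 (SE 0.47, 95% interval -2.76 to -0.86), a 3.51-fold lower level, with a limma p of 0.000533 and an adjusted p of 0.977. Vehicle arrays had a lowest, median and highest value of 6.37, 7.04 and 7.82, which stops below the Ang II range; 3 of the 4 arrays with 2-HOBA lay within the vehicle range, whose lowest value is that of vehicle replicate 2, and array 2 just below it. Within set 2 the difference was -2.37, with an adjusted p of 0.0259 by limma with the vehicle arrays of that set in the fit. With only the 6 arrays of the compared groups in that set, 0 genes were called. The other 21 tested genes of cathepsins and the lysosome differed by less than 0.5 in size in either direction, and the median of the list was 0.07 (-0.001 with quantile normalization), with 15 of 22 members higher.

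The erythroid list had the most negative median of the 33 lists. It has 27 genes of red cell precursors and their membrane, of which 23 are on the array with a symbol of their own and 18 passed the floor. All 18 lay lower with 2-HOBA, with a median difference of -0.74 against 0.05 over all genes. 11 of the 18 had an unadjusted p below 0.05 in that direction (1.81% of all genes), and in 6 the groups did not overlap (1.06%). With no floor, 23 of 23 lay lower, with a median of -0.74. The haemoglobin genes Hba-a1 and Hbb-bt had no probe set of their own here. The erythroid transcription factor genes Gata1 and Klf1 did not pass the floor, with highest values on any array of 5.33 and 4.56.

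GATA factors bind the letters AGATAA, and erythroid genes are known for carrying them near their start. The letters, or TTATCT on the other strand, were searched in a window from 250 bases before to 50 after the start of each gene, in RefSeq's promoter table of build GRCm38.p6. A window was found for 13 of the 18 tested erythroid genes, and 7 of these held the letters, against 12.7% of all genes with a window. The 6 whose match lay before the start are printed because they belong to the list with the most negative median; capitals mark the match.
Rhd (chr4:134864463-134864528, plus strand): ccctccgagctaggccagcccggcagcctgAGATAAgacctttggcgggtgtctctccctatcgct
Icam4 (chr9:21029359-21029424, plus strand): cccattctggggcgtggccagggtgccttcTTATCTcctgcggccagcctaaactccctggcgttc
Epor (chr9:21963595-21963660, minus strand): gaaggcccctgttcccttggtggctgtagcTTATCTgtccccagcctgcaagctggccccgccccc
Alas2 (chrX:150547301-150547366, plus strand): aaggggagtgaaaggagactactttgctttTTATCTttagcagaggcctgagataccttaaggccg
Trim10 (chr17:36869381-36869446, plus strand): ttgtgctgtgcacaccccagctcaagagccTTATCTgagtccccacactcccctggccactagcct
Epb42 (chr2:121037068-121037127, minus strand): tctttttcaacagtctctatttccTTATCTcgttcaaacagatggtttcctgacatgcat
The match began 43 bases before the start in Rhd and in Icam4, 54 in Epor, 86 in Alas2, 163 in Trim10 and 226 in Epb42. A match is a description of these letters, and binding was not measured. Members with and without the letters both lay lower: Rhd and Trim10 carry them, while Aqp1 and Ermap do not.

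Among erythroid surface proteins, Rhd, the Rh blood group antigen, was at 3.97, 3.85, 4.70 and 4.00 with 2-HOBA and at 4.82, 5.32, 6.79 and 5.72 with Ang II. Replicate 3 was the highest array of both groups, and the groups did not overlap. The difference was -1.53 (SE 0.45, 95% interval -2.45 to -0.62), with a p of 0.00177 and an adjusted p of 0.977. Ermap, an erythroblast membrane adhesion protein, was at 4.71, 4.69, 5.13 and 5.00 with 2-HOBA and at 5.44, 5.70, 5.71 and 5.65 with Ang II. The groups were apart, and the Ang II arrays lay within a narrow band. The difference was -0.74 (SE 0.26, 95% interval -1.28 to -0.21, adjusted p = 0.977 by limma). Aqp1, the water channel of red cells and endothelium, was at 4.52, 4.34, 4.86 and 4.47 with 2-HOBA and at 5.24, 5.38, 5.60 and 5.77 with Ang II, again without overlap, a difference of -0.95 (SE 0.34). Icam4, the Landsteiner-Wiener antigen, was at 4.81, 4.79, 4.61 and 4.46 with 2-HOBA and at 4.84, 4.98, 5.03 and 4.94 with Ang II. Its groups were apart by a narrow margin, with a difference of -0.28 (SE 0.23) and a p of 0.235.

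Car1 encodes carbonic anhydrase 1, an abundant enzyme of red cells. Its level was 4.18, 3.11, 4.53 and 3.77 with 2-HOBA and 4.71, 6.10, 5.86 and 5.47 with Ang II, with no overlap, and its difference was -1.64 (SE 0.70, 95% interval -3.08 to -0.20, adjusted p = 0.977 by limma). Ang II replicate 1 lay well under the other 3. Trim10, a gene of terminal erythroid differentiation, was at 3.91, 4.28, 4.71 and 4.04 with 2-HOBA and at 4.70, 4.86, 5.85 and 5.43 with Ang II. The groups touched, with array 3 with 2-HOBA just above Ang II replicate 1, and the difference was -0.98 (SE 0.29, 95% interval -1.57 to -0.38). Ank1, the ankyrin that ties the red cell skeleton to its membrane, was at 4.59, 4.47, 4.60 and 4.77 with 2-HOBA and at 4.96, 5.05, 5.02 and 5.44 with Ang II, apart in every array, with a difference of -0.51 (SE 0.33).

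The remaining erythroid genes are named after their values were seen. Slc4a1, the anion exchanger band 3, was at 6.38, 5.34, 6.68 and 6.18 with 2-HOBA and at 6.36, 7.03, 8.37 and 8.36 with Ang II. Ang II replicates 3 and 4 were the highest, replicate 1 lay inside the 2-HOBA range, and the difference was -1.39 (SE 0.51, 95% interval -2.43 to -0.35). The same 2 Ang II arrays were the highest for Epb42, the membrane protein 4.2, which was at 4.35, 4.07, 4.04 and 4.03 with 2-HOBA and at 4.23, 4.86, 5.42 and 5.66 with Ang II, and for Car2, another carbonic anhydrase, at 6.59, 5.45, 6.46 and 6.03 with 2-HOBA and 5.80, 5.98, 8.71 and 8.26 with Ang II. Hemgn, a nuclear protein of blood progenitors, was at 4.51, 4.13, 4.62 and 4.45 with 2-HOBA and at 4.55, 5.58, 5.56 and 6.06 with Ang II, and its Ang II replicate 1 lay among the 2-HOBA arrays. The skeleton gene Sptb (-0.59), the heme synthesis gene Fech (-0.74) and the tetraspanin gene Tspan33 (-0.53) also had unadjusted p-values below 0.05 (0.0197, 0.0203 and 0.043). The heme synthesis gene Alas2 (-0.53), the transferrin receptor gene Tfrc (-0.37), the erythropoietin receptor gene Epor (-0.29) and Tmod1 (-0.03) did not.

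Averaged over its 18 tested genes, the erythroid list was at 5.00, 4.60, 5.04 and 4.84 on the arrays with 2-HOBA and at 5.08, 5.40, 6.16 and 5.98 on the Ang II arrays. The groups did not overlap, but the margin was 0.04, and Ang II replicates 1 and 2, of array set 1, lay nearer to the 2-HOBA arrays than replicates 3 and 4. Vehicle arrays had a lowest, median and highest value of 4.88, 5.23 and 5.42, so that the Ang II replicates 3 and 4 lay above the vehicle range and 2 of the 4 arrays with 2-HOBA below it. Within set 2 the median of the list was -1.26, with 1 of 18 genes higher. There, limma gave a difference of -2.13 for Rhd (adjusted p = 0.0211), -2.36 for Car2 (0.0211), -1.42 for Epb42 (0.0211) and -1.38 for Hemgn (0.0431). These values rest on Ang II replicates 3 and 4 alone, with the vehicle arrays of set 2 in the fit. With only the 6 arrays of the compared groups in that set, limma called 0 genes. Blocking on the array set gave a median of -0.97. The part of red cell precursors among the sampled cells in these values was not tested.

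**Figure D2:**
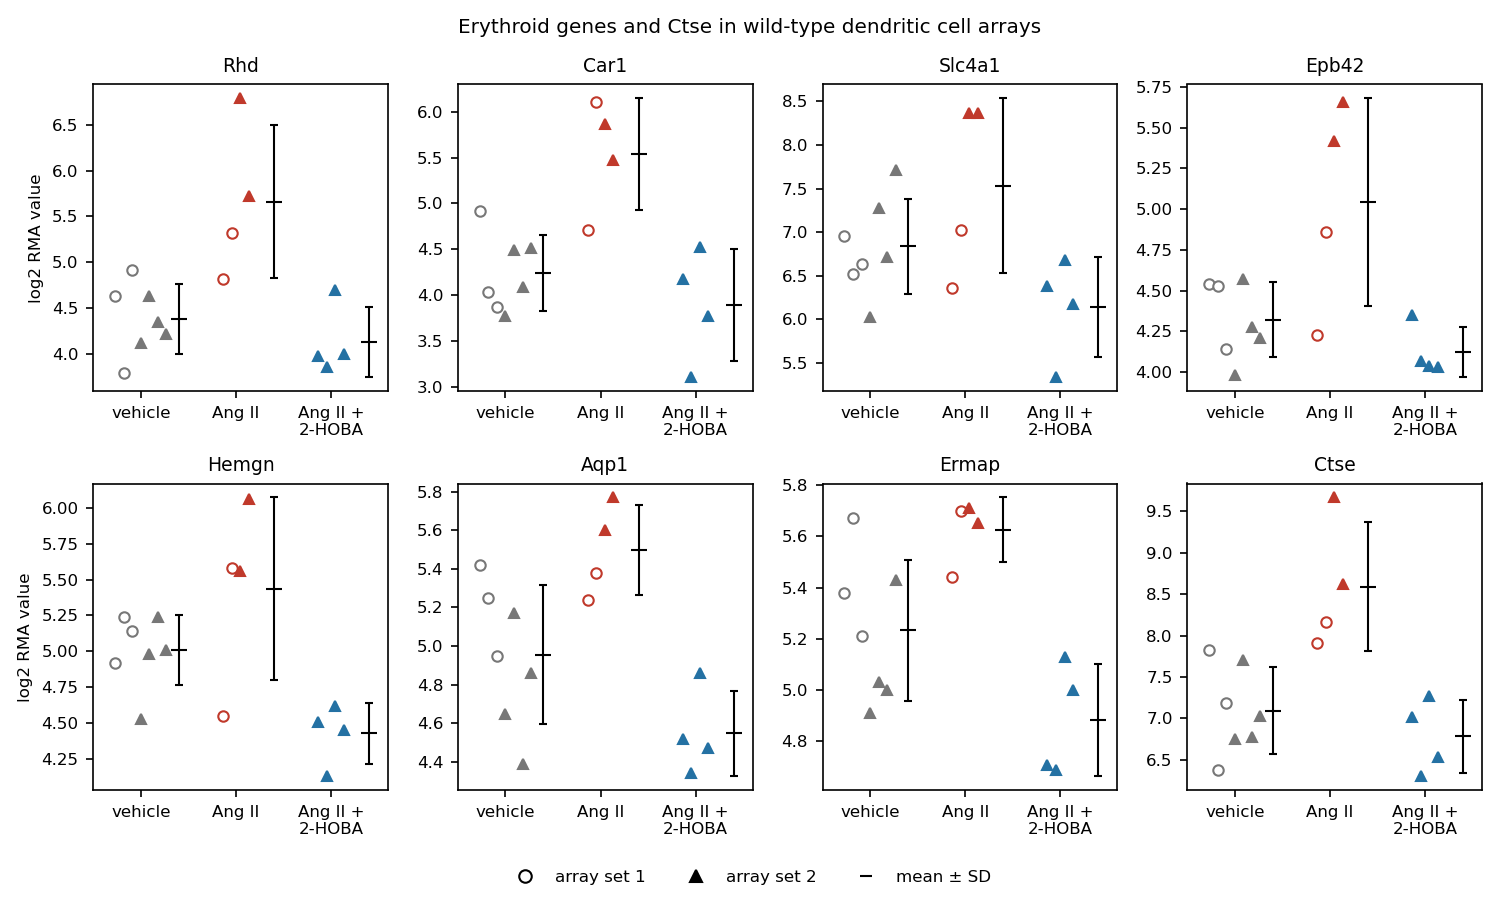
Log2 values of 7 erythroid genes and of Ctse on each wild-type array, by group (7 vehicle, 4 Ang II, 4 Ang II with 2-HOBA), with open circles for array set 1 and filled triangles for set 2. Bars give the mean ± SD. In Slc4a1, Epb42 and Ctse the highest Ang II values are the 2 triangles, replicates 3 and 4, while the arrays with 2-HOBA lie in or under the vehicle range.

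Neutrophil granule genes lay lower as well. All 13 tested of 20 listed had a negative difference, with a median of -0.59, 2 had an unadjusted p below 0.05 (1.81% of all genes in that direction) and 3 had non-overlapping groups (1.06%). With no floor the median was -0.37, with 1 of 20 higher. Ltf, which encodes the iron-binding granule protein lactoferrin, was at 4.11, 3.70, 3.58 and 4.41 with 2-HOBA and at 5.04, 4.96, 5.71 and 4.47 with Ang II. The margin between the groups was narrow, and the difference was -1.09 (SE 0.52, 95% interval -2.16 to -0.03). Ngp, a secondary granule protein, was at 5.71, 5.60, 4.63 and 5.96 with 2-HOBA and at 6.94, 6.47, 8.38 and 6.00 with Ang II. Lcn2, an iron-siderophore binding protein, was at 5.32, 5.18, 4.60 and 5.44 with 2-HOBA and at 5.84, 5.79, 7.87 and 5.77 with Ang II. In both, Ang II replicate 3 stood far above the other 3 Ang II arrays, and the standard errors were wide (0.74 for a difference of -1.47 and 0.79 for -1.18). The gelatinase gene Mmp9 had a difference of -0.59 (95% interval -1.18 to -0.00) and the chitinase-like gene Chil3 one of -1.18 (95% interval -2.69 to 0.33). The calprotectin gene S100a8, named after its values were seen, was high on all 8 arrays and overlapped fully, at 9.69, 9.58, 8.85 and 11.04 with 2-HOBA and 10.87, 9.78, 11.51 and 9.08 with Ang II. On average the list was at 5.94, 5.78, 5.54 and 6.26 with 2-HOBA and at 6.71, 6.17, 7.49 and 5.99 with Ang II, and vehicle arrays spanned 5.14 to 7.62, beyond both. The median of the list was -0.37 without Ang II replicate 3, -0.93 without Ang II replicate 4 and -0.94 without array 4 with 2-HOBA, instead of -0.59.

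Genes of cell division lay slightly lower as a list, and a few mitotic genes more so. Of 40 tested, 28 lay lower and 12 higher, with a median of -0.13; 6 had an unadjusted p below 0.05, all lower (1.81% of all genes), and 3 had non-overlapping groups, also all lower (1.06%). Incenp, the scaffold of the chromosomal passenger complex, had the smallest p of all genes tested. Its level was 6.40, 6.03, 6.16 and 6.15 with 2-HOBA and 7.22, 7.49, 7.03 and 6.84 with Ang II. The groups were tight, and the gap between their nearest arrays was 0.44. The difference was -0.96 (SE 0.22, 95% interval -1.42 to -0.50), with a p of 0.000172 and an adjusted p of 0.977. Its vehicle values ran over 6.49, 6.76 and 7.64 (lowest, median, highest), above every array with 2-HOBA and across the Ang II range.

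Ube2c, the ubiquitin-conjugating enzyme of the anaphase-promoting complex, was at 4.41, 3.71, 4.53 and 4.09 with 2-HOBA and at 4.60, 4.68, 5.34 and 4.99 with Ang II, a difference of -0.72 (SE 0.31). Aurkb, the kinase of the same passenger complex as Incenp, was at 5.33, 5.09, 5.11 and 5.35 with 2-HOBA and at 5.74, 5.37, 5.76 and 5.64 with Ang II, apart by 0.02, with a difference of -0.41 (SE 0.24, 95% interval -0.89 to 0.07). The mitotic kinase gene Cdk1 (-0.54, 95% interval -0.96 to -0.12) and the cyclin gene Ccnb2 (-0.59, 95% interval -1.16 to -0.03) overlapped between groups. So did the proliferation marker Mki67 (-0.79, 95% interval -1.54 to -0.03) and the ribonucleotide reductase gene Rrm2 (-0.77, 95% interval -1.52 to -0.02), both named after their values were seen. The replication histone genes H2ac4 and H2bc14 were in the same direction. H2ac4 was at 3.41, 3.67, 3.98 and 3.00 with 2-HOBA and at 4.58, 4.31, 4.48 and 4.63 with Ang II, below 5 on all 8 arrays, and H2bc14 at 7.16, 6.97, 7.05 and 6.80 with 2-HOBA and at 7.33, 8.29, 8.08 and 7.53 with Ang II. Their differences were -0.98 (SE 0.46) and -0.81 (SE 0.36), and the groups did not overlap in either. Blocking on the array set gave the cell division list a median of -0.27, with 3 of 40 genes higher, and it was -0.08 without array 2 with 2-HOBA and -0.195 without array 3 with 2-HOBA.

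2 further genes were among the 12 most negative with non-overlapping groups. Macrod2, which encodes an enzyme that removes ADP-ribose from proteins, was at 5.45, 6.24, 5.47 and 5.97 with 2-HOBA and at 7.99, 7.54, 6.27 and 6.62 with Ang II. Its Ang II replicates 1 and 2, of set 1, were the highest, and the difference of -1.32 became -0.66 within set 2. Ypel4 was at 3.56, 3.71, 4.02 and 4.21 with 2-HOBA and at 4.40, 4.38, 4.97 and 5.01 with Ang II, a difference of -0.82 (SE 0.33), and -1.11 within set 2. In 8 of the 12 genes on this side the mean with 2-HOBA was below 5, near the lower end of the scale, where array values are known to be compressed.

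On the higher side the largest difference with non-overlapping groups was in Ormdl1, a regulator of the first enzyme of sphingolipid synthesis. Its level was 6.19, 6.05, 6.35 and 6.31 with 2-HOBA and 4.28, 5.08, 6.01 and 5.58 with Ang II. The Ang II arrays were spread widely, with the set 1 replicates lowest, and the difference of 0.99 (SE 0.30, 95% interval 0.38 to 1.59, adjusted p = 0.977 by limma) became 0.43 within set 2. Lzic had the second smallest p of the comparison. It was at 5.43, 5.36, 5.42 and 5.74 with 2-HOBA and at 5.04, 4.41, 4.97 and 4.38 with Ang II, and each array set held a higher and a lower Ang II value. The difference of 0.79 (SE 0.19, 95% interval 0.40 to 1.18) was 0.81 within set 2. Cd209d, a lectin gene of the DC-SIGN family, was at 5.07, 5.05, 4.98 and 5.32 with 2-HOBA and at 4.24, 3.93, 4.72 and 4.31 with Ang II, a difference of 0.80 (SE 0.25), and 0.59 within set 2. Its vehicle values had a median of 4.75, between the groups.

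Other genes on this side, taken by size, have varied roles. Ltn1, the ubiquitin ligase of ribosome quality control, was at 8.09, 8.17, 8.35 and 8.0 with 2-HOBA and at 6.74, 7.48, 7.79 and 7.58 with Ang II, a difference of 0.76 (SE 0.31). Lnpk, which shapes junctions of the endoplasmic reticulum, was at 5.43, 5.27, 5.41 and 5.22 with 2-HOBA and at 4.25, 3.85, 5.03 and 4.95 with Ang II, a difference of 0.81 (SE 0.24). Slc31a1, the copper importer, was at 5.01, 4.64, 5.00 and 4.60 with 2-HOBA and at 3.42, 4.12, 4.40 and 4.34 with Ang II, a difference of 0.74 (SE 0.22). In these 3 genes Ang II replicate 1 or 2 was the lowest array, and the differences within set 2 were 0.47, 0.35 and 0.44.

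The chromatin remodelling gene Cecr2 differed by 0.80 (0.62 within set 2) and the heme-binding protein gene Hebp2 by 0.77 (0.81). The phosphatase regulator gene Igbp1 differed by 0.75, and by 0.15 within set 2. Kbtbd7, an adaptor of cullin ubiquitin ligases, differed by 0.72 (0.40 within set 2), the centrosomal gene Cep44 by 0.70 (0.59) and Hepacam2 by 0.70 (0.35). In 9 of the 12 genes on this side the Ang II mean was below 5. For all 24 genes, 12 on each side, the vehicle mean lay between the means of the compared groups. The genes were picked for large differences between these groups, which favours a vehicle mean in between. The share over all genes was not computed, so no reversal can be read from this count. Of the 3 genes above 1, which were named after their values were seen and all had overlapping groups, Chil5 was at 5.31, 5.08, 4.76 and 4.83 with 2-HOBA and at 3.57, 3.12, 5.08 and 3.64 with Ang II. Only Ang II replicate 3 lay inside the 2-HOBA range, and without that array the difference was 1.55 and Chil5 was the only gene called (adjusted p = 0.0422 by limma). The others were C1galt1, a mucin-type glycosylation enzyme, at 1.20, and Vpreb3, which belongs to the B cell list.

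4 lists lay higher with 2-HOBA as a whole, and in all 4 the Ang II arrays of set 1 were the low ones. The B cell list had 19 of 19 tested genes higher (58.6% of all genes), with a median of 0.40, 3 at an unadjusted p below 0.05 (1.82%) and none with non-overlapping groups. On average it was at 8.68, 9.08, 8.54 and 8.66 with 2-HOBA and at 7.81, 7.88, 8.77 and 8.54 with Ang II, so that Ang II replicates 3 and 4 lay within the 2-HOBA range or at its edge. Vpreb3, a gene of immature B cells, was at 6.86, 7.66, 6.71 and 7.63 with 2-HOBA and at 6.06, 4.98, 7.15 and 6.51 with Ang II, a difference of 1.04 (SE 0.31, 95% interval 0.41 to 1.68). The Fc receptor-like gene Fcrla differed by 0.95, the antigen receptor component gene Cd79b by 0.73 and the low-affinity IgE receptor gene Fcer2a by 0.75. Within set 2 the median of the list was 0.07, with 13 of 19 higher, and with the set as a block 0.02, with 10 of 19 higher. The block includes vehicle replicate 2, at 6.67 for this list against 8.05 to 8.66 on the other vehicle arrays.

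The plasmacytoid list had 13 of 13 tested genes higher, with a median of 0.40, 4 at an unadjusted p below 0.05 (1.82% of all genes) and 3 with non-overlapping groups (1.8%). It was at 6.92, 6.89, 6.86 and 6.74 with 2-HOBA and at 6.19, 6.12, 6.69 and 6.54 with Ang II. The groups were apart by 0.05, with the set 1 replicates 1 and 2 again the lowest. Besides Cd209d, the separated genes were Smim5, at 5.00, 5.14, 4.67 and 4.61 with 2-HOBA and 4.31, 4.49, 4.51 and 4.50 with Ang II, and Tcf4, the master transcription factor of plasmacytoid cells, at 7.89, 7.98, 7.73 and 7.93 with 2-HOBA and 7.55, 7.70, 7.69 and 7.68 with Ang II. The activating receptor gene Cd300c (0.77, 95% interval 0.23 to 1.32) and the chemokine receptor gene Ccr9 (0.94, 95% interval 0.06 to 1.81) overlapped. Within set 2 all 13 were still higher, with a median of 0.20, while with the set as a block 7 of 13 were, with a median of 0.03. That block includes vehicle replicate 2, at 5.51 for this list against 6.23 to 7.23 on the other vehicle arrays. Spib, a transcription factor gene, stands in both lists and in that of shared dendritic cell genes.

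The proteasome, which cuts proteins into the peptides carried by MHC class I, had 29 of 31 subunit genes higher with a median of 0.22, and 0 at an unadjusted p below 0.05. Oxidative phosphorylation had 36 of 40 higher with a median of 0.28, and also 0 at that threshold. The proteasome list was at 7.46, 7.31, 7.48 and 7.32 with 2-HOBA and at 6.84, 6.94, 7.58 and 7.32 with Ang II, and the respiratory list at 7.59, 7.48, 7.65 and 7.58 with 2-HOBA and at 6.90, 7.09, 7.81 and 7.47 with Ang II. In both, Ang II replicates 1 and 2 lay under all other arrays of the comparison, and replicate 3 above them all. For the subunit gene Psmb7 the difference was 0.40 (SE 0.22), for Psmb3 0.50 (SE 0.30), for Psma6 0.49 (SE 0.30) and for the ATPase subunit gene Psmc4 -0.32 (SE 0.19). The complex III gene Uqcrb differed by 0.58, the complex IV gene Cox7a2 by 0.37 and the complex I genes Ndufa2 and Ndufv2 by 0.47 and 0.41. With the set as a block both medians turned negative (-0.14 and -0.09), and within set 2 they were -0.06 and -0.03. Without Ang II replicate 1 they were 0.12 and 0.13, and without Ang II replicate 3 they were 0.35 and 0.44.

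**Figure D3:**
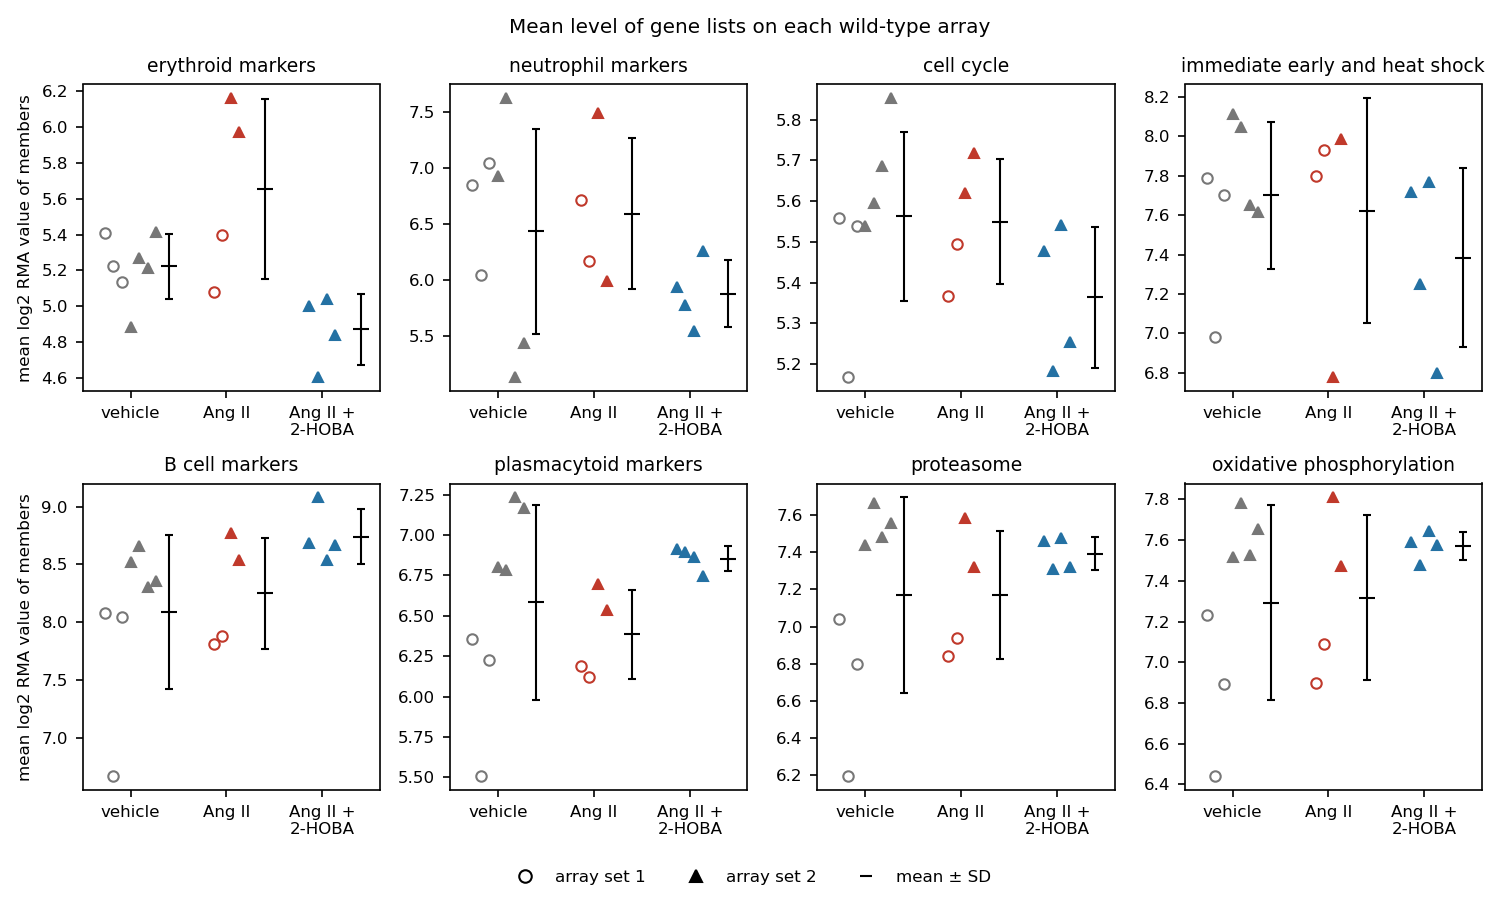
Mean log2 value of the tested members of 8 gene lists on each wild-type array, by group, with open circles for array set 1, filled triangles for set 2 and bars for the mean ± SD. In the lower row the Ang II circles, replicates 1 and 2, lie under the arrays with 2-HOBA and the Ang II triangles lie among or near them. In the erythroid panel the Ang II triangles are the arrays farthest from those with 2-HOBA.

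Antigen presentation genes followed the same arrays. Of 14 MHC class II genes, 12 lay higher, with a median of 0.20. H2-Ob, a chain of the peptide-loading regulator DO that B cells also express, was at 9.11, 9.51, 8.87 and 9.16 with 2-HOBA and at 7.80, 8.03, 9.13 and 8.84 with Ang II, a difference of 0.71 (SE 0.32, 95% interval 0.05 to 1.37). The class II alpha chain gene H2-Aa was at 11.59, 11.37, 11.53 and 11.40 with 2-HOBA and at 10.83, 10.99, 11.40 and 11.52 with Ang II, where replicates 3 and 4 lay within the 2-HOBA range. Of 17 MHC class I and immunoproteasome genes 14 lay higher, with a median of 0.11, among them the translocon gene Sec61b (0.60, 95% interval 0.03 to 1.16) and the proteasome activator gene Psme2 (0.35, 95% interval -0.14 to 0.83). With the set as a block the medians were -0.11 and -0.14.

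The genes nearest to the chemistry of 2-HOBA showed little difference. Of the 8 tested NADPH oxidase genes 4 lay higher and 4 lower, with a median of 0.07, and none passed an unadjusted p below 0.05. Cybb, the catalytic subunit, was at 9.26, 8.78, 9.37 and 8.54 with 2-HOBA and at 8.48, 8.35, 8.99 and 9.26 with Ang II, with full overlap. Its difference of 0.22 had a 95% interval of -0.62 to 1.06, and it was -0.13 within set 2. The partner subunit gene Cyba differed by -0.02 (-0.72 to 0.68) and the cytosolic organiser gene Ncf1 by -0.05 (-0.45 to 0.36). All 3 intervals are wide beside the estimates and take in differences of either sign.

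Of 18 antioxidant genes 8 lay higher and 10 lower (median -0.06, and from -0.122 without array 3 with 2-HOBA to 0.15 without Ang II replicate 3), with 0 at an unadjusted p below 0.05. Hmox1, the heme oxygenase, was at 10.12, 9.35, 10.02 and 9.45 with 2-HOBA and at 10.16, 9.53, 9.59 and 10.32 with Ang II, a difference of -0.17 (95% interval -0.89 to 0.56). The sulfiredoxin gene Srxn1 differed by 0.32, the peroxiredoxin gene Prdx1 by 0.39 (-0.11 within set 2), the glutathione synthetase gene Gss by -0.32 and the glutathione reductase gene Gsr by -0.45. None of the 4 had an unadjusted p below 0.05.

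The list of enzymes that detoxify aldehydes and dicarbonyls had 15 of 22 tested genes higher, with a median of 0.10. In 2 of them, both higher, the groups did not overlap (1.8% of all genes in that direction). Park7, a protein of oxidative stress defence, was at 7.33, 7.28, 7.42 and 7.46 with 2-HOBA and at 6.41, 7.18, 6.92 and 7.10 with Ang II, a difference of 0.47 (SE 0.26, 95% interval -0.06 to 0.99). Cyp4f18, a leukotriene-degrading cytochrome P450, was at 6.55, 6.70, 6.68 and 6.50 with 2-HOBA and at 6.43, 5.57, 6.38 and 6.13 with Ang II, a difference of 0.48 (SE 0.26, 95% interval -0.05 to 1.01). In both the distance between the groups was small, and 1 Ang II array lay far under the rest. The glyoxalase gene Hagh (-0.41) and the carbonyl reductase gene Cbr3 (-0.32) lay the other way.

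Among 13 genes of leukotriene and prostaglandin synthesis 9 lay lower (median -0.08). Alox5, the 5-lipoxygenase that starts leukotriene synthesis, was at 4.30, 3.87, 4.46 and 4.03 with 2-HOBA and at 4.89, 4.67, 4.47 and 4.66 with Ang II. The groups were apart by 0.01, all 8 values were under 5, and the difference was -0.51 (SE 0.21, 95% interval -0.94 to -0.07). The vehicle median was higher than every value of either group, at 5.23. The cyclooxygenase gene Ptgs2 overlapped widely, at 7.08, 6.31, 7.30 and 5.00 with 2-HOBA and 7.66, 7.06, 5.43 and 7.81 with Ang II.

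Inflammatory cytokine and NF-kB genes lay lower in 14 of 21 cases (median -0.06), and none had an unadjusted p below 0.05. Il1b was at 8.06, 6.90, 7.66 and 7.33 with 2-HOBA and at 8.79, 7.14, 7.56 and 7.09 with Ang II, a difference of -0.16 (95% interval -0.98 to 0.66). Tnf was at 6.49, 6.15, 6.02 and 6.18 with 2-HOBA and at 6.42, 6.38, 6.57 and 6.57 with Ang II, a difference of -0.28 (-0.73 to 0.17). Il6 and Il23a stayed below the floor, with highest values on any array of 4.66 and 4.71, and were not tested. The inflammasome gene Nlrp3 differed by -0.55, the NF-kB inhibitor gene Tnfaip3 by -0.66 and the interleukin 12 subunit gene Il12a by 0.45. Nlrp3 and Tnfaip3 shared a pattern: in both, Ang II replicate 3 was the lowest of the Ang II arrays and lay inside the 2-HOBA range.

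That array set the immediate early and heat shock list apart as well. Of 30 genes 20 lay lower, with a median of -0.17, and none had an unadjusted p below 0.05. The list was at 7.72, 7.25, 7.77 and 6.80 with 2-HOBA and at 7.80, 7.93, 6.78 and 7.99 with Ang II, so that array 4 with 2-HOBA and Ang II replicate 3 were the lowest of their groups by a wide margin. Atf3, a stress-induced transcription factor, was at 8.45, 6.30, 8.90 and 5.86 with 2-HOBA and at 9.55, 9.51, 5.78 and 9.23 with Ang II, a difference of -1.14 (SE 0.59, 95% interval -2.35 to 0.07) that was -0.13 within set 2. Klf4 differed by -0.54, Jund by -0.31 and Ier3 by -0.59; within set 2 these were -0.10, 0.10 and 0.11. Without Ang II replicate 3 the list median was -0.39, and without array 4 with 2-HOBA it was -0.005.

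Of 18 chemokine and chemokine receptor genes 11 lay higher (61.1%, near the 58.6% of all genes), with a median of 0.02, and -0.037 with quantile normalization. Cxcl2, a neutrophil-attracting chemokine, was at 6.31, 4.25, 6.42 and 4.77 with 2-HOBA and at 7.82, 7.17, 5.72 and 6.69 with Ang II. The groups overlapped, with Ang II replicate 3 inside the 2-HOBA range, and the difference was -1.42 (SE 0.69, 95% interval -2.82 to -0.01). The dendritic cell chemokine gene Ccl22 differed by 0.49 (95% interval -0.15 to 1.13). Of 21 interferon-stimulated genes 12 lay higher (57.1%, near the 58.6% of all genes), with a median of 0.12. Rsad2, the antiviral enzyme viperin, was at 5.92, 4.69, 5.69 and 6.00 with 2-HOBA and at 5.96, 5.72, 7.81 and 6.46 with Ang II, a difference of -0.91 (SE 0.33, 95% interval -1.58 to -0.25), and Ang II replicate 3 stood well above every other array of the comparison.

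Costimulatory and coinhibitory ligands lay higher in 9 of 15 cases (60%, near the 58.6% of all genes), with a median of 0.18, and -0.16 with the set as a block. Cd80 was at 6.17, 5.12, 6.37 and 6.19 with 2-HOBA and at 5.77, 5.11, 5.46 and 5.69 with Ang II, a difference of 0.45 (95% interval -0.28 to 1.18), and array 2 with 2-HOBA was more than 1 below the other 3. Cd86 was at 7.25, 6.91, 7.32 and 7.03 with 2-HOBA and at 6.18, 6.55, 7.01 and 7.47 with Ang II, a difference of 0.32 (-0.34 to 0.99) that was -0.12 within set 2. The inhibitory ligand gene Vsir differed by -0.56 (95% interval -1.09 to -0.03), the adhesion ligand gene Icam1 by 0.44 (95% interval -0.01 to 0.90) and Cd274, which encodes PD-L1, by -0.35 (95% interval -0.89 to 0.20). The hypoxia target Vegfa was at 5.84, 5.62, 6.10 and 6.07 with 2-HOBA and at 6.71, 6.70, 6.06 and 6.26 with Ang II, a difference of -0.53 (SE 0.21, 95% interval -0.95 to -0.10), in a glycolysis and hypoxia list with 10 of 18 genes higher and a median of 0.06, and -0.014 with quantile normalization. Of 18 unfolded protein response genes 9 lay higher and 9 lower (median 0.03, and -0.056 with quantile normalization).

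The markers of conventional dendritic cell types overlapped. Of 15 type 1 (cDC1) genes 12 lay higher (median 0.12), with Wdfy4, a gene of cross-presentation, at 0.34 and the lysosomal thioesterase gene Ppt1 at 0.32. Within set 2 the median was -0.31. Of 15 type 2 (cDC2) genes 9 lay lower (median -0.13). The transcription factor gene Tbx21 differed by -0.38 (95% interval -0.75 to -0.01) and the lectin gene Clec10a by 0.61 (95% interval -0.02 to 1.23), the latter between 2.16 and 4.45 on the 8 arrays. Of the 11 shared genes 8 lay higher (median 0.14).

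Of 21 red pulp macrophage genes 17 lay lower (median -0.11, and from -0.307 without array 1 with 2-HOBA to 0.11 without array 2), and the levels were uneven within both groups: 7.46, 6.28, 7.29 and 6.39 with 2-HOBA and 6.89, 6.74, 6.80 and 7.61 with Ang II. Blocking on the array set gave -0.65. The complement gene C1qb differed by -0.53, the efferocytosis receptor gene Mertk by -0.45, the haemoglobin scavenger receptor gene Cd163 by -0.31 and the scavenger receptor gene Marco by -0.25, none with an unadjusted p below 0.05. Of 14 monocyte genes 11 lay lower (median -0.20). Natural killer genes lay higher in 8 of 13 cases (61.5%, near the 58.6% of all genes), with a median of 0.18 and Klrb1c at 0.58. T cell genes lay lower in 11 of 18 (median -0.12). Of these only Ubash3a (-0.28) had its groups apart, by 0.02, where 1.06% of all genes lay apart on that side. In Ubash3a, Ang II replicate 1 was at 5.44 and the next Ang II array at 4.98. Platelet (4 of 9 higher), plasma cell (4 of 8), stromal and endothelial (7 of 14), mast cell and basophil (1 of 3) and renin-angiotensin genes (1 of 3) had medians between -0.11 and -0.02.

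**Figure D4:**
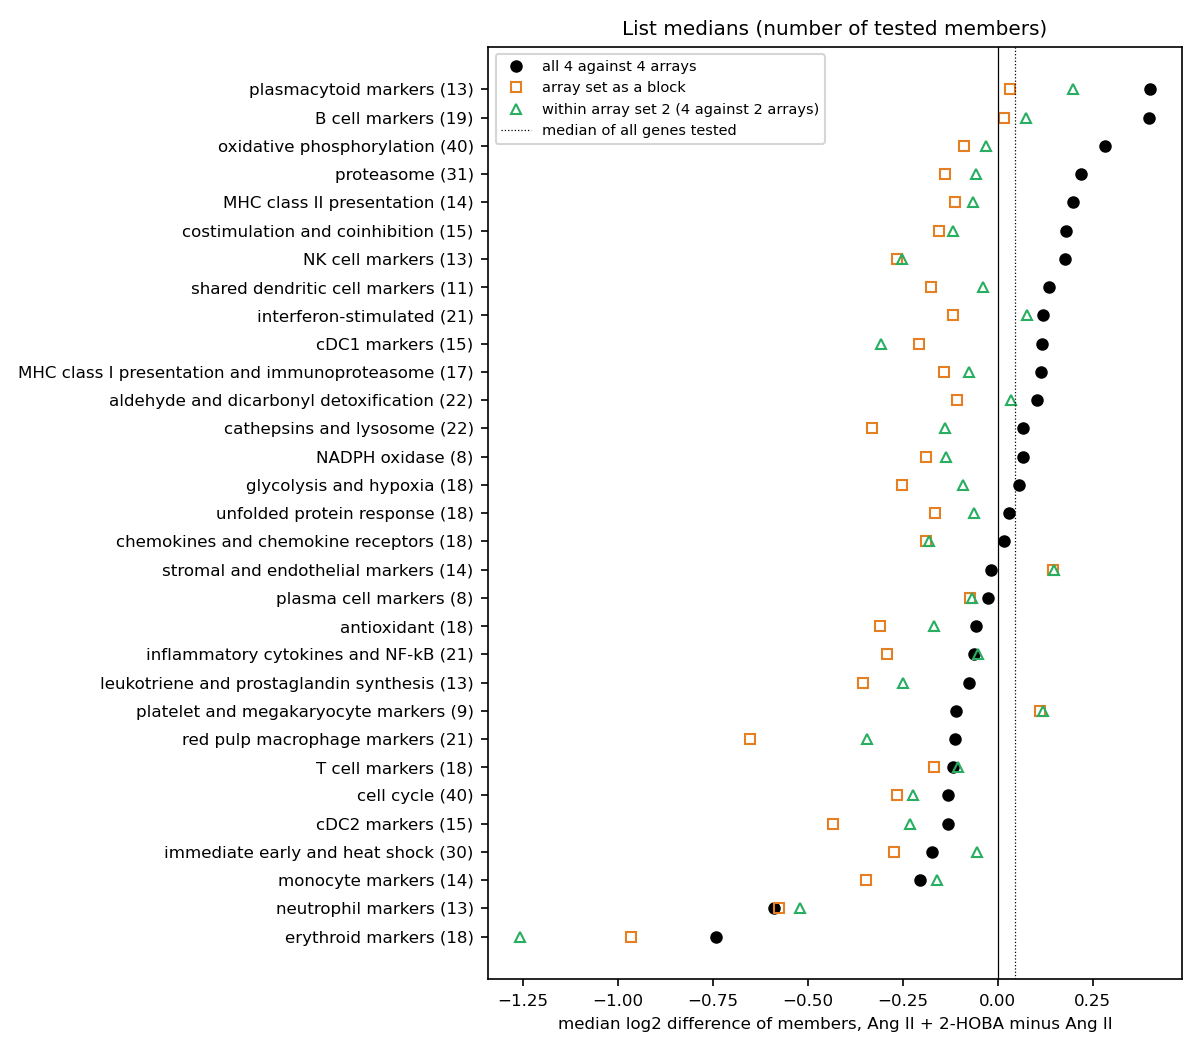
Median log2 difference, Ang II with 2-HOBA minus Ang II, over the tested members of each list with 8 or more (number in brackets). Black points use all 4 against 4 arrays, orange squares the array set as a block and green triangles the arrays of set 2, and the dotted line is the median of all genes (0.05). The erythroid and neutrophil medians are negative under all 3, while the proteasome and oxidative phosphorylation medians change sign.

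Vehicle arrays place these values. The comparisons of either group with vehicle share arrays with the one described, so their values are given side by side only, and limma called 0 genes for Ang II and 0 for Ang II with 2-HOBA at an adjusted p below 0.05 (266 and 601 at an unadjusted p below 0.05). For Ctse, Ang II differed from vehicle by 1.5 and Ang II with 2-HOBA by -0.31. For Rhd these values were 1.28 and -0.25, for Car1 1.29 and -0.35, and for Epb42 0.72 and -0.20. The erythroid list median was 0.41 for Ang II against vehicle and -0.37 for Ang II with 2-HOBA, so its vehicle level lay between the groups. The neutrophil medians were 0.15 and -0.52. For the red pulp macrophage list they were -0.64 and -0.67, under vehicle in both groups. For the B cell list they were 0.14 and 0.65, and for the plasmacytoid list -0.17 and 0.25.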

How the data were processed

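Total RNA was labelled as biotinylated cRNA on one-colour Affymetrix arrays, per the labels' protocols. The authors deposited log2 values for 35556 probe sets on 28 arrays, made with RMA in Partek 6.6, per the submitters' processing notes; the genome build is not given in the sources used here. No scanner intensities were used, so the number of arrays limits the precision, and low values are floors rather than zeros. All 28 value columns were matched to a sample by their labels, leaving 0 without one.

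In the platform annotation 21789 probe sets carried 1 symbol, 1621 several and 12146 none; only the first were named, and 999 genes had several probe sets. The floor was a log2 value above 5 on 3 arrays. limma 3.58.1 (R 4.3.3) was fitted to all 28 arrays with 6 group means, moderated across genes and adjusted by Benjamini-Hochberg over the 10452 genes tested, with a call below 0.05; the script was first tested on simulated data. List differences are medians of fitted differences, described and not tested.

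Named genes were 10 given in advance of the fit (Il6 and Il23a among them), the 12 largest differences on each side with an unadjusted p below 0.05 and non-overlapping groups, the 3 smallest p-values and, per list, the 4 smallest p-values and the genes with non-overlapping groups; 2 predicted or unnamed-type genes were passed over, and others are said to be named after their values were seen. The members, the lists and these rules were chosen with earlier results of these data known. Alternatives were other floors, array subsets, weights, scalings, blocks, all probe sets and leaving out each array in turn. The fits with only the 6 arrays of set 2 and with the set block without vehicle replicate 2 were added after seeing the data.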

Additional observations from a re-analysis of the deposited data

Results flagged for a closer look

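In each group of 4 arrays, an array whose gap to its nearest neighbour took a larger share of the group's range than Dixon's 95% critical value was marked. This was done for 106 genes and 33 list levels, 278 group tests in all, of which 21 were marked; chance alone marks about 1 in 20. Values are log2 levels.

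Among the Ang II arrays, replicate 3 was set apart for Lcn2 (7.87, the next 5.84), Atf3 (5.78, the next 9.23), Cd274 (6.56, the next 7.26) and Tnfaip3 (6.54, the next 8.23), and for the immediate early and heat shock level (6.78, the next 7.80). Replicate 1 was set apart for Rrm2 (5.20, the next 5.97), Smim5 (4.31, the next 4.49), Tcf4 (7.55, the next 7.68) and Ubash3a (5.44, the next 4.98). Replicate 2 was so for Tbx21 (6.52, the next 6.13) and Clec10a (2.16, the next 3.49). Replicate 4 was so for C1qb (7.39, the next 6.85), for the red pulp macrophage level (7.61, the next 6.88) and for the renin-angiotensin level (6.53, the next 6.07).

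Among the arrays with 2-HOBA, replicate 3 was set apart for Rhd (4.70, the next 4.00) and Il12a (4.77, the next 5.63). Replicate 1 was so for Epb42 (4.35, the next 4.07), Psma6 (8.02, the next 8.21) and the stromal and endothelial level (5.67, the next 5.88). Replicate 2 was so for Cd80 (5.12, the next 6.17) and replicate 4 for Clec10a (4.45, the next 3.61).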

How the results depend on the processing

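No gene was called by limma in the comparison as reported or under the other settings, except 5 within array set 2 and 1 when Ang II replicate 3 was left out (leaving out arrays in turn gave 0 to 1). The 379 genes at an unadjusted p below 0.05 became 771 with no floor, 87 with a floor of 7, and 205 to 959 when arrays were left out in turn, vehicle replicate 2 (777) included. Of these genes 50.1% lay higher; the share was 28.3% with the array set as a block, 33.5% with that block and no vehicle replicate 2, 38.7% with only the 6 arrays of set 2, 39.8% with no floor and 64.6% with array weights. The median difference of 0.05 was 0.12 with a floor of 7, -0.088 with the set block and -0.033 with that block and no vehicle replicate 2. Quantile normalization and a common median moved it to 0.00 and turned no named gene, but they turned the list medians nearest to 0: chemokines (-0.037 with quantile normalization, -0.033 with a common median), unfolded protein response (-0.056 and -0.020) and, with quantile normalization, glycolysis and hypoxia (-0.014) and cathepsins (-0.001).

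The list medians that turned sign with the set block, and moved by more than the spread of the list's level between arrays, were NADPH oxidase (-0.19), aldehyde and dicarbonyl detoxification (-0.11), costimulation (-0.16), MHC class II (-0.11), MHC class I (-0.14), proteasome (-0.14), unfolded protein response (-0.17), interferon-stimulated (-0.12), glycolysis and hypoxia (-0.25), oxidative phosphorylation (-0.089), cathepsins (-0.33), cDC1 (-0.21), shared dendritic cell (-0.18) and NK cell genes (-0.27). Without a change of sign, the plasmacytoid (0.031), B cell (0.016) and red pulp macrophage (-0.65) medians moved most under that block. Vehicle replicate 2 enters the block, and without it the median over all genes was -0.033 instead of -0.088. List medians for the block without that array are not given here, so part of these moves may rest on it. Within set 2 NADPH oxidase (-0.14), costimulation (-0.12), MHC class II (-0.066), proteasome (-0.057), glycolysis (-0.093), oxidative phosphorylation (-0.031), cDC1 (-0.31) and NK cell genes (-0.25) turned by more than that spread, and the plasmacytoid (0.20) and erythroid (-1.26) medians moved. By less than that spread, chemokines, platelet and stromal genes turned under both (-0.19, 0.11 and 0.15 with the block), and MHC class I, unfolded protein response, cathepsins, shared dendritic cell and mast cell genes within set 2. Leaving out arrays in turn also turned medians within that spread, among them red pulp macrophage genes (0.11 without array 2 with 2-HOBA) and antioxidant genes (0.15 without Ang II replicate 3). The stromal median was 0.18 with a floor of 7. The cause was not tested.

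Of single genes, the set block turned Cybb (-0.36), Cd86 (-0.27), Tcf4 (-0.003), Psmb3 (-0.011) and Prdx1 (-0.15). Vehicle replicate 2 enters that block. It was the lowest vehicle array for Cybb (6.34), Tcf4 (5.97), Psmb3 (5.70) and Prdx1 (7.96). Gene values for the block without that array are not given here, so these turns may rest on it. Within set 2 Cybb (-0.13), Il1b (0.16), Cd86 (-0.12), Uqcrb (-0.031), Jund (0.10), Ier3 (0.11), Prdx1 (-0.11), Wdfy4 (-0.038) and Ppt1 (-0.16) turned. Array weights turned Cyba (0.038) and Il1b (0.021). With arrays left out in turn Cyba ran from -0.17 to 0.12, Il1b from -0.35 to 0.22 and Ncf1 from -0.088 to 0.040.

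The groups share replicate numbers, but the deviations of same-numbered arrays correlated at -0.05, 0.06, -0.14 and -0.31, so the numbers were not taken to pair samples. With the replicate block on the 8 arrays, 0 genes were called and 439 had an unadjusted p below 0.05, against 526 on the same arrays without it.

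With 4 arrays a group and a median standard error of 0.22, differences of that size could not be told from 0, and genes near the floor of 5 carry compressed differences.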

Other observations

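The remaining genes with a difference below -1 belong to no list and had overlapping groups. Mgst3, a microsomal enzyme of glutathione conjugation, was at 4.88, 3.71, 4.37 and 3.77 with 2-HOBA and at 4.84, 5.97, 6.23 and 4.87 with Ang II, a difference of -1.29 (adjusted p = 0.977 by limma). Ang II replicates 2 and 3 were the high arrays, and the vehicle mean of 4.22 was near the 2-HOBA mean of 4.18. Cngb1, a subunit of a cyclic nucleotide-gated channel, was at 5.21, 5.99, 5.19 and 5.13 with 2-HOBA and at 7.38, 7.19, 6.20 and 5.26 with Ang II, with the Ang II arrays of set 1 highest. Fam71a was at 4.77, 4.17, 4.29 and 3.90 with 2-HOBA and at 5.54, 6.03, 4.54 and 5.04 with Ang II, a difference of -1.01. On the other side, C1galt1 was at 7.0, 7.08, 6.44 and 7.03 with 2-HOBA and at 4.67, 4.88, 6.54 and 6.67 with Ang II, so that its difference of 1.20 came mostly from the Ang II arrays of set 1. All 4 genes are named after their values were seen.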
